A study of Mus musculus with 15 samples.

Results

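The genes described here are 35 genes of glycolysis and of the response to low oxygen, taken as the rows of the count files whose symbol is on a list of members. They are 35 of 24490 gene rows, and 34 of them passed the filter on low counts that left 14907 genes for testing. By role they are 2 glucose transporters, 15 glycolytic enzymes, 2 enzymes of fructose-2,6-bisphosphate, 3 genes of the pyruvate branch, 2 HIF alpha subunits, 2 HIF prolyl hydroxylases and 9 targets of HIF that lie outside glycolysis. Primary ovarian granulosa cells of 8-week-old RjOrl:SWISS female mice, which line the follicle around the oocyte, had been transfected with siRNA in culture and their poly(A) RNA sequenced. The 15 libraries form 5 groups of 3, which are scrambled siRNA at 30 h, Foxl2 siRNA at 30 h, Esr2 siRNA at 30 h, scrambled siRNA at 54 h and Foxl2 siRNA at 54 h. FOXL2 is a forkhead transcription factor of granulosa cells and ESR2 is oestrogen receptor beta. All 5 groups share the transfection reagent, and the scrambled groups carry a non-targeting siRNA in the same amount. The times are those of the sample titles, since the protocol names 30 h alone. One set of siRNA catalogue numbers is listed for both Foxl2 and Esr2, and the labels do not tie a pool of siRNAs to a library, and whether the 3 libraries in each group are separate cultures, animals or repeats of 1 RNA is not stated. The p-values then measure only how far these libraries spread, which may be technical.

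Glycolysis breaks glucose down to pyruvate in the cytosol. Lactate dehydrogenase can turn pyruvate into lactate, while pyruvate dehydrogenase kinases hold pyruvate back from the mitochondria. When oxygen falls, the HIF prolyl hydroxylases lose activity and HIF alpha subunits accumulate, pair with ARNT and bind the letters ACGTG or GCGTG near many genes, those of most glycolytic enzymes among them. In the ovary, granulosa cells sit outside the blood supply of the growing follicle and pass pyruvate and lactate to the oocyte. HIF alpha subunits are controlled largely at the protein level, which RNA counts do not show.

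The letters that HIF binds were common in the promoters of these genes. RefSeq windows from 250 bases before to 50 bases after an annotated start (GRCm38.p6) were matched by symbol for 32 members, and gave 46 windows. ACGTG or GCGTG, read on both strands, was present in 37 of the 46 windows (80.4%), against 43.8% of all 32851 windows of the same length. By gene it was present for 29 of 32 members (90.6%), against 46.7% of 27025 genes. All 8 matched HIF targets outside glycolysis had it, as did 12 of the 15 enzymes. Both motifs hold a CG, and the member windows had a median of 20 CG dinucleotides against 7 over all windows, so base composition moves with the share of matches; its part was not tested. GTAAACA, a core that forkhead factors bind, was present in 1 of the 46 member windows (2.17%) and in 3.65% of all windows. A match describes letters and not binding.

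The upstream parts of 4 of these windows are printed here because the levels of these genes are described below. Ldha and Pdk1 each had another window further downstream that is not printed. The whole other window of Ldha (chr7:46846832-46847131) held 2 matches, of which 0 were ACGTG. That of Pdk1 (chr2:71874654-71874953) held 0 matches. Hk2, Ldhb and Pdk1 were called higher after Foxl2 siRNA at 54 h. Ldha was called lower there, a call that was lost in 9 of 13 alternatives. Each is written 5′ to 3′ on the strand of the gene and ends at the base before the RefSeq start, and capitals mark ACGTG or GCGTG on either strand. None of the 4 stretches lies in an exon of GENCODE M21. The Ldha stretch lies within the GENCODE span of the gene (chr7:46841475-46855627). The bases just after its RefSeq start were not found in a GENCODE transcript of Ldha, unlike those of Hk2, Ldhb and Pdk1. They are chr6:82774455-82774704 (minus strand) for Hk2, chr7:46845554-46845803 (plus strand) for Ldha, chr6:142507958-142508207 (minus strand) for Ldhb and chr2:71872974-71873223 (plus strand) for Pdk1.
Hk2: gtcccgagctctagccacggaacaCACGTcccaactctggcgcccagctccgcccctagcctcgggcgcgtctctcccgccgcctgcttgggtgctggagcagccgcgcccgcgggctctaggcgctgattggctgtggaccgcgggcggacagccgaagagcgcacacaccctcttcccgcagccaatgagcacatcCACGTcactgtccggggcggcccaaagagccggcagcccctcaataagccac
Ldha: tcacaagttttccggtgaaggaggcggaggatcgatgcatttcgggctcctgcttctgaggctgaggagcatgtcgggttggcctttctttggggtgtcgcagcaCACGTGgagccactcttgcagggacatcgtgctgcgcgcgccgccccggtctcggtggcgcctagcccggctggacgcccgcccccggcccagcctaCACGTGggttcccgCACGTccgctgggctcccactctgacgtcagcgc
Ldhb: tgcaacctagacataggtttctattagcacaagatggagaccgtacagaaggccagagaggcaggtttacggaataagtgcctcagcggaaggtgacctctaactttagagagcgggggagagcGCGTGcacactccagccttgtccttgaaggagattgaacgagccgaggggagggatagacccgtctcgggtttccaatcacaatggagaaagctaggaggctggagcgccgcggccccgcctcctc
Pdk1: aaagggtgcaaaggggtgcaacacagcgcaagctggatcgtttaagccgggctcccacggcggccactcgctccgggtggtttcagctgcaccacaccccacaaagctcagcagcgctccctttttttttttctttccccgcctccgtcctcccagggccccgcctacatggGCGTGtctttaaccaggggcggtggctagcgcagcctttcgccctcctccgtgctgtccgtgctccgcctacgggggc
Hk2 had 2 matches, beginning 226 and 52 bases before the start. The Ldha stretch had 5, at 145, 144, 48, 47 and 34 bases, which merge into 3 runs of capitals because ACGTG and its reverse complement overlap in CACGTG. Ldhb had 1 match at 126 bases and Pdk1 had 1 at 78 bases. Another match of Pdk1 begins 2 bases before the start and crosses it, so it is not in capitals.

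The libraries held 44976872 to 59550065 gene counts, and 3 counts correspond to 0.0504 to 0.0667 CPM, the level unit used below, which scales counts to the TMM-normalised size of the library. Each siRNA lowered its target: Foxl2 had 174, 152 and 143 CPM in the scrambled libraries of 30 h, given here and below in the order of replicates 1 to 3, against 33.8, 28.4 and 65.4 CPM with its siRNA. At 54 h these were 189, 154 and 166 CPM against 33.7, 57.5 and 25.2 CPM. The most Foxl2 was kept by replicate 3 of the 30 h knockdown and replicate 2 of the 54 h knockdown. Esr2 stood at 12.9, 14.5 and 13.9 CPM after its siRNA against 60.6, 60.4 and 61.6 CPM. At 54 h Esr2 was also lower with Foxl2 siRNA (a log2 change of -1.31 ± 0.34, edgeR adjusted p = 0.00854). It measured 18.0, 49.3 and 15.7 CPM there, where the scrambled libraries had 74.2, 64.9 and 67.3 CPM. The same siRNA at 30 h left Esr2 at 29.2, 25 and 45.5 CPM, below every scrambled library of that time. That difference did not pass (log2 -0.87 ± 0.34, edgeR adjusted p = 0.109). Esr2 siRNA in turn left 112, 128 and 114 CPM of Foxl2, again below every scrambled library of 30 h. This too was not called (log2 -0.41 ± 0.29, edgeR adjusted p = 0.539). The granulosa cell list (10 genes, among them Fshr, Amh and Inha) summed to 2887 to 3174 CPM in the 6 scrambled libraries and to 2227 to 2998 CPM with Foxl2 siRNA at 54 h. Inha, at 1900 to 1970 CPM, made up most of the sum in the scrambled libraries, whereas Fshr stood at 0.238 to 0.645 CPM there and Amh at 0.168 to 0.42 CPM, so these markers were scarce. The list also holds Foxl2 itself. With Foxl2 siRNA at 54 h, 7 of its 10 genes were called, against 38.8% of all genes. Amh and Amhr2 were higher, and Foxl2, Cyp19a1, Fst, Nr5a2 and Hsd17b1 were lower. Cyp19a1 had a log2 change of -5.86 ± 0.78 (edgeR adjusted p = 0.000104) and Fst one of -3.43 ± 0.47 (0.000129). The globin genes and the oocyte gene Figla were at 0 counts in all 15 libraries. Other genes of these lists were detected at low levels. Of the erythroid list only Alas2 was tested, and it was called higher with Foxl2 siRNA at 30 h and 54 h (log2 1.62 and 2.31). That list summed to 0.183 to 0.398 CPM with scrambled siRNA and 0.91 to 2.11 CPM with Foxl2 siRNA at 54 h. The oocyte list summed to 0.431 to 0.822 CPM over all libraries. The surface epithelium list (9 of its 10 genes are in the files) summed to 450 to 474 CPM with scrambled siRNA and 627 to 690 CPM with Foxl2 siRNA at 30 h, and to 412 to 485 and 1017 to 1098 CPM at 54 h. Of its 9 tested genes, 3 were called higher at 30 h and 7 at 54 h, against 6.34% and 18.5% of all genes. The theca and stroma list ranged from 219 to 1312 CPM and spread widely within every group, from 236 to 838 CPM with scrambled siRNA at 30 h for example, lowest in replicate 1 of both scrambled and both Foxl2 siRNA groups and in Esr2 siRNA replicate 2. The smooth muscle and pericyte list ranged from 510.5 to 1707 CPM and was lowest in the same libraries. The leukocyte list summed to 4.33 to 8.64 CPM. Of its 4 tested genes, Csf1r was called higher with Foxl2 siRNA at both times and Itgam at 54 h. In bulk RNA, fewer cells of a type and less RNA per cell cannot be told apart, and the part of these other cells in the results below was not tested.

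Foxl2 siRNA raised Hk2, Aldoc, Ldhb and Ddit4 most among the called members at 54 h and lowered Pfkp most, while none of the tested member enzymes between aldolase and the pyruvate branch was called. At 54 h, 13 of the 34 tested members were called at an adjusted p under 0.05 (38.2%), 10 higher and 3 lower, against 38.8% of all 14907 genes called in either direction (18.5% higher, 20.3% lower). The genes called higher were Hk2, Gpi1, Pfkl, Aldoa, Aldoc, Pfkfb4, Ldhb, Pdk1, Vegfa and Ddit4, and those called lower were Pfkp, Ldha and Egln1. At 30 h 5 of 34 were called (14.7%), with Hk2, Aldoc, Pfkfb4 and Vegfa higher and Egln1 lower, against 13% of all genes (6.34% higher, 6.65% lower). Both shares lie near the background, so as a list the members were not called more often than genes at large. Their median log2 change was 0.04 at 30 h and 0.13 at 54 h, beside -0.01 over all genes tested at both times. Every adjusted p without another name comes from edgeR's quasi-likelihood test (two-sided) and is adjusted by Benjamini-Hochberg over the 14907 genes, and log2 changes are given ± SE with n = 3 libraries per group.

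**Figure D1:**
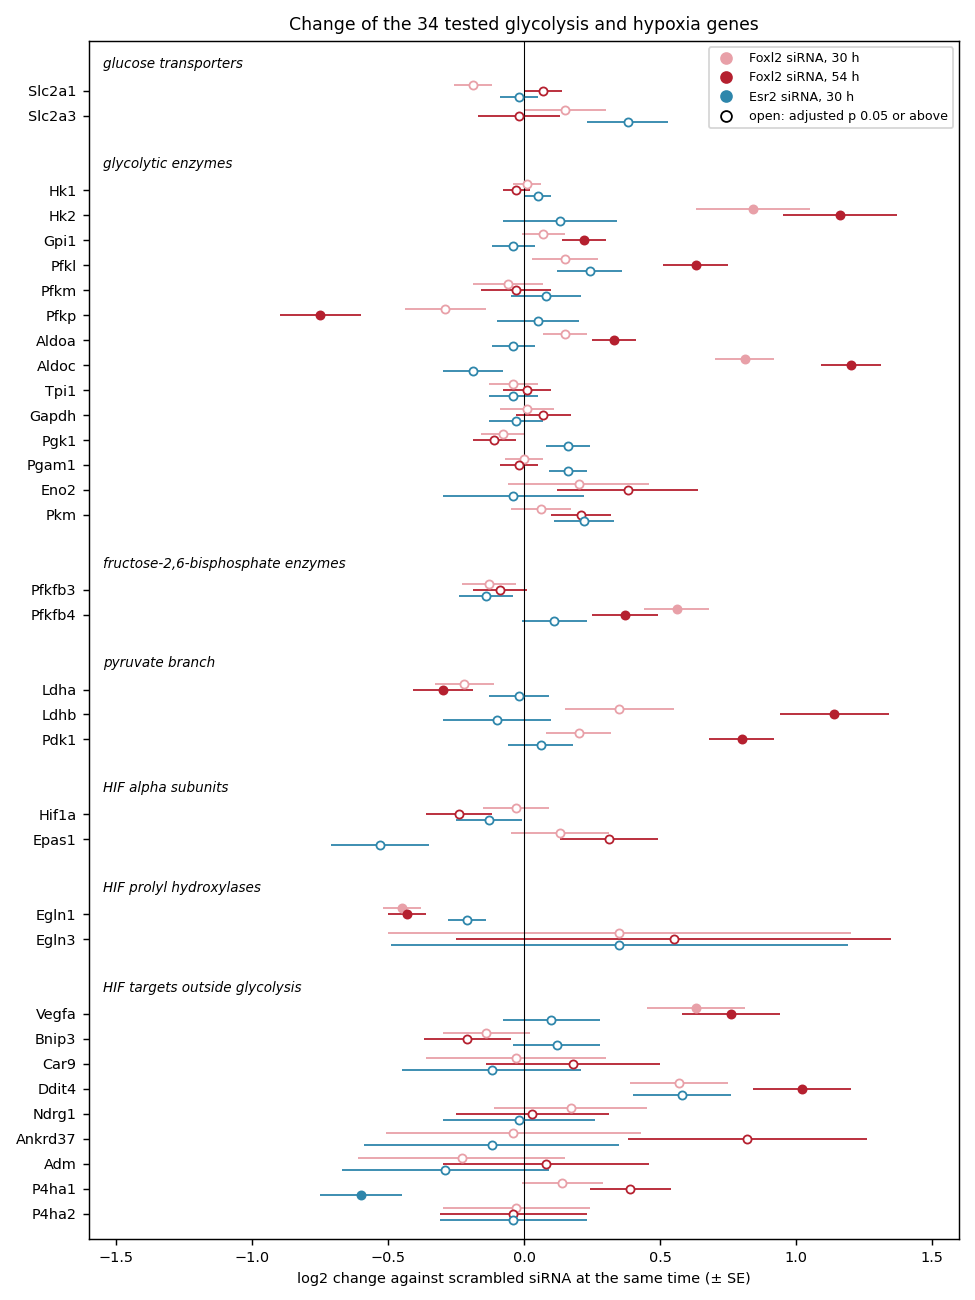
Log2 change against scrambled siRNA at the same time (x axis, ± SE from edgeR, 3 libraries per group) for the 34 tested members, grouped by role. Filled points passed an adjusted p of 0.05. Hk2, Aldoc, Ldhb and Ddit4 lie at or above 1.02 at 54 h and Pfkp at -0.75, while Tpi1, Gapdh and Pgam1 lie within 0.07 of 0.

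The glucose transporters were not called in any comparison with scrambled siRNA. Slc2a1, the GLUT1 transporter of basal glucose uptake, stood at 50, 52.1 and 54.1 CPM with scrambled siRNA at 30 h and at 44.3, 47.4 and 45.5 CPM with Foxl2 siRNA. The groups did not overlap, but the difference did not pass (log2 -0.19 ± 0.07, edgeR adjusted p = 0.0956). At 54 h the libraries overlapped (log2 0.07 ± 0.07, edgeR adjusted p = 0.480). Slc2a3, the high-affinity transporter GLUT3, ranged from 7.02 to 12.1 CPM over all 15 libraries.

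Among the enzymes, the first step showed a change of isoform. Hexokinase phosphorylates glucose on entry; Hk2 (chr6:82725025-82774454, minus strand, GRCm38) is the inducible form and Hk1 the constitutive one. At 30 h Hk2 measured 97.0, 84.3 and 88.9 CPM in the scrambled libraries against 195, 171 and 119 CPM in the knockdown. At 54 h it was 90.8, 82.1 and 82.4 CPM against 243, 131 and 198 CPM. Every Foxl2 siRNA library lay above every scrambled one, and within each time the library that kept the most Foxl2 had the lowest Hk2. The rise was 1.79-fold at 30 h (log2 0.84 ± 0.21, edgeR adjusted p = 0.0207) and 2.24-fold at 54 h (log2 1.16 ± 0.21, edgeR adjusted p = 0.000991). At 30 h Hk2 no longer passed when 1 of 4 libraries was left out (scrambled replicates 2 and 3 and Foxl2 siRNA replicates 1 and 2, edgeR adjusted p = 0.0684 to 0.0906). Hk1 ranged from 98.7 to 117 CPM over the 15 libraries and did not pass at either time (log2 0.01 ± 0.05 and -0.03 ± 0.05, edgeR adjusted p = 0.935 and 0.702). Per exon length, Hk2 made up 41.7% ± 2.53 (SD, n = 3) of Hk1 and Hk2 with scrambled siRNA at 30 h and 55.5% ± 5.43 with Foxl2 siRNA, and 41.4% ± 1.77 and 60.9% ± 7.12 at 54 h.

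Phosphofructokinase, the committed step, works as tetramers of the subunits PFKL (liver type), PFKM (muscle type) and PFKP (platelet type). Pfkl (chr10:77986947-78010083, minus strand) stood at 58.1, 71.2 and 62.9 CPM with scrambled siRNA at 54 h and at 117, 80.6 and 101 CPM with Foxl2 siRNA. It rose 1.55-fold without overlap (log2 0.63 ± 0.12, edgeR adjusted p = 0.00130). At 30 h it stood at 57.9, 64.2 and 62.3 CPM against 71.1, 67.3 and 65.8 CPM and did not pass (log2 0.15 ± 0.12, edgeR adjusted p = 0.466). Pfkp (chr13:6579768-6648777, minus strand) moved the other way at 54 h, from 36.1, 41.4 and 40.1 CPM to 16.7, 29.5 and 23.5 CPM. This was a 1.68-fold fall (log2 -0.75 ± 0.15, edgeR adjusted p = 0.00163), with replicate 2, which kept the most Foxl2, nearest to the scrambled libraries. At 30 h Pfkp stood at 39.0, 41.2 and 41.1 CPM against 31.0, 31.4 and 37.1 CPM, without overlap and without passing (log2 -0.29 ± 0.15, edgeR adjusted p = 0.226). Exons of Pfkp overlap the opposite-strand gene Pitrm1 over 748 bases, 17.4% of the exon length, and the strand setting of the counting is not given in the sources used here; Pitrm1 itself had a log2 change of -0.22 ± 0.10 at 54 h (edgeR adjusted p = 0.101). Pfkm stood at 25.2 to 37.5 CPM in all libraries and did not pass (log2 -0.03 ± 0.13 at 54 h, edgeR adjusted p = 0.887).

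Per exon length, Pfkl made up 46.1%, 48.0% and 45.9% of the 3 subunits in the scrambled libraries of 54 h against 71.8%, 52.7% and 63.8% after Foxl2 siRNA. Pfkp made up 24.9%, 24.2% and 25.4% against 8.92%, 16.7% and 12.9%. Neither share overlapped between the groups. The Pfkm share did, at 28.5% ± 0.630 (SD, n = 3) against 24.4% ± 5.71. Lengths of the longest transcript in place of the union of exons gave close values, such as 45.7% and 61.9% for the mean Pfkl share. These shares were not tested.

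Aldolase splits fructose-1,6-bisphosphate. Aldoc (chr11:78322968-78327781, plus strand), the form best known from brain, stood at 2.56, 2.51 and 2.15 CPM with scrambled siRNA at 30 h and at 4.30, 4.46 and 3.88 CPM with Foxl2 siRNA. At 54 h it stood at 2.49, 2.71 and 2.73 CPM against 5.92, 6.29 and 6.03 CPM. The groups were far apart relative to their spread, and Aldoc had the smallest adjusted p of all members at both times, with a 1.75-fold rise at 30 h (log2 0.81 ± 0.11, edgeR adjusted p = 0.000580) and a 2.30-fold rise at 54 h (log2 1.20 ± 0.11, edgeR adjusted p = 6.73e-06). The counts behind these values were 437 over the 3 scrambled libraries at 54 h and 955 over the 3 Foxl2 siRNA libraries. Aldoa (chr7:126795234-126800751, minus strand), the main form here, stood at 494, 504 and 491 CPM against 640, 579 and 652 CPM at 54 h and rose 1.26-fold (log2 0.33 ± 0.08, edgeR adjusted p = 0.00394). Aldoc thus remained 0.836% ± 0.0789 (SD, n = 3) of the pair per exon length at 54 h, from 0.457% ± 0.0228. The Aldoa value is uncertain, because reads can be shared with its retrocopies Aldoart1 and Aldoart2, which were counted at 72.7 to 103 and 24.1 to 40.2 CPM and had log2 changes of 0.35 ± 0.09 (edgeR adjusted p = 0.00778) and 0.33 ± 0.13 (edgeR adjusted p = 0.0621) at 54 h.

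The isomerase gene Gpi1 stood at 153, 147 and 147 CPM against 182, 165 and 174 CPM at 54 h, a 1.16-fold rise (log2 0.22 ± 0.08, edgeR adjusted p = 0.0413). It failed the threshold without any 1 of the scrambled libraries and without Foxl2 siRNA replicate 1 or 3 (edgeR adjusted p = 0.0675 to 0.139). The member enzymes after aldolase were not called: Tpi1, Gapdh, Pgk1, Pgam1, Eno2 and Pkm had log2 changes from -0.11 (Pgk1) to 0.38 (Eno2) at 54 h, with edgeR adjusted p from 0.162 to 0.967. Outside the members, isoforms for 2 of these steps, Pgam2 and Eno3, were called higher at 54 h and Bpgm, a bisphosphoglycerate mutase, lower; Eno3 and Bpgm are named after their values were seen. Gapdh, the most abundant member per exon length, stood at 1041, 1070 and 1038 CPM against 1173, 969 and 1163 CPM at 54 h, and its libraries overlapped. Pkm, which encodes the muscle-type pyruvate kinase, stood at 1033, 1073 and 1038 CPM against 1263, 985 and 1377 CPM. Without Foxl2 siRNA replicate 2 the change of Pkm passed (edgeR adjusted p = 0.00845), and without replicate 3 that of Pgk1 did, as lower (0.0258). Eno2 was high in Foxl2 siRNA replicate 2, at 21.2 CPM against 9.81 and 10.4 CPM in the other two. Eno1 had 0 to 5 counts in a library and was not tested; its near-identical copy Eno1b was counted at 647 to 833 CPM, so the level of the main enolase cannot be told apart between them, and Eno1b did not pass at 54 h (log2 -0.01 ± 0.10, edgeR adjusted p = 0.938).

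PFKFB enzymes make and break fructose-2,6-bisphosphate, an activator of phosphofructokinase. Pfkfb4 (chr9:108991778-109032228, plus strand) stood at 12.2, 13.2 and 13.1 CPM with scrambled siRNA at 30 h and at 19.8, 17.0 and 19.8 CPM with Foxl2 siRNA, a 1.47-fold rise without overlap (log2 0.56 ± 0.12, edgeR adjusted p = 0.00967). At 54 h it stood at 12.4, 12.3 and 12.9 CPM against 15.7, 19.9 and 13.1 CPM, and the smaller rise (log2 0.37 ± 0.12, edgeR adjusted p = 0.0259) was lost without Foxl2 siRNA replicate 2 (edgeR adjusted p = 0.0980), without any 1 of the scrambled libraries (0.0529 to 0.0740), in a fit of those 6 libraries alone (0.0991) and with voom (0.0681). Pfkfb3 stood at 39.6 to 56.1 CPM and was not called at either time.

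**Figure D2:**
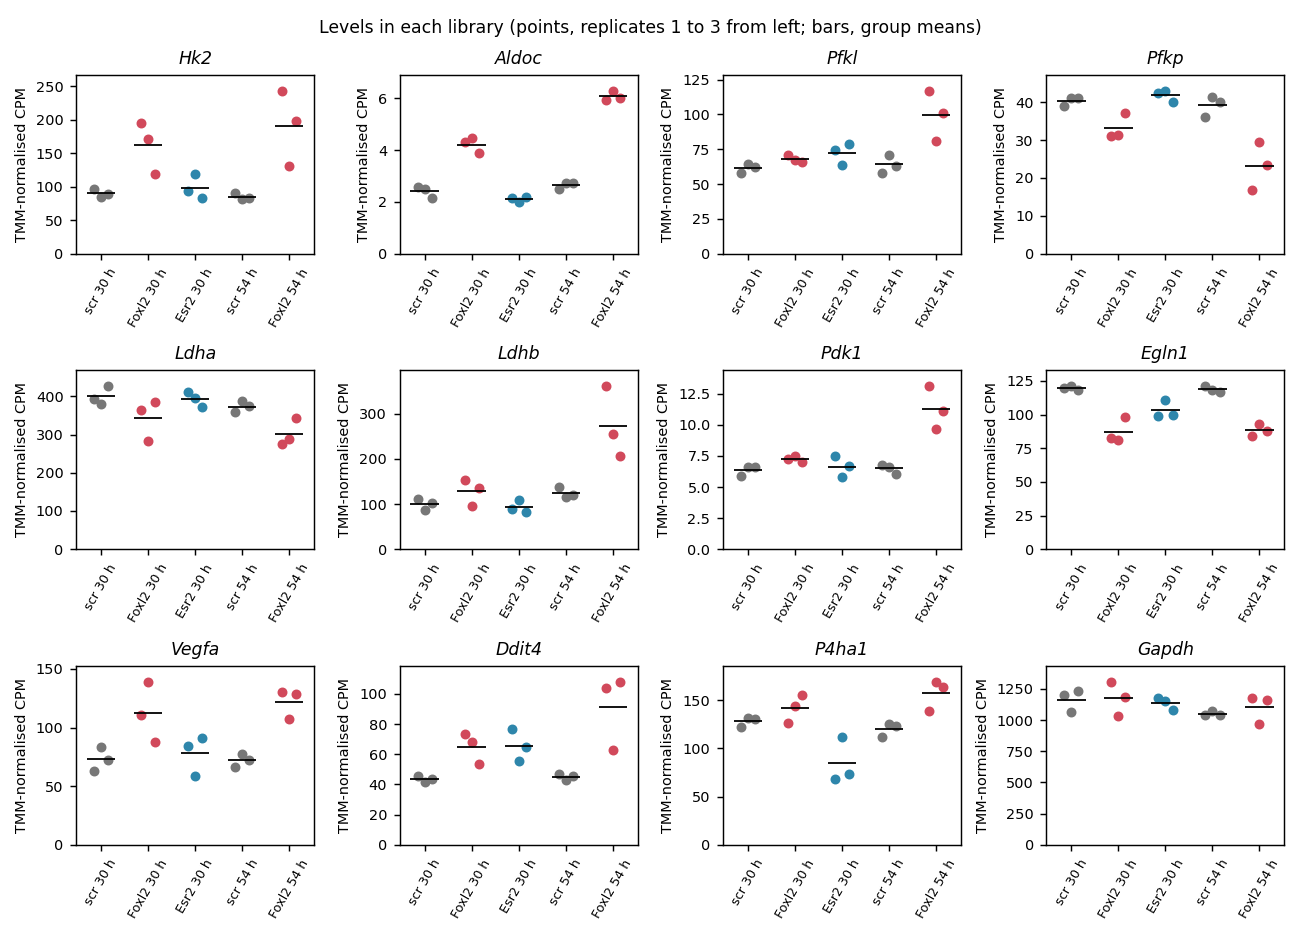
TMM-normalised CPM (y axis, from 0) of 12 members in each of the 15 libraries, with replicates 1 to 3 from left to right in each group and a bar at the group mean. Hk2, Aldoc, Vegfa and Ddit4 lie higher and Egln1 lower in every Foxl2 siRNA library than in the scrambled libraries of the same time, whereas the Gapdh libraries overlap.

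The branch at pyruvate had a call at each of its 3 members at 54 h, where 38.8% of all genes were called, and the call of Ldha was unstable. Ldhb (chr6:142490249-142507957, minus strand) encodes the H subunit of lactate dehydrogenase, known from heart, and Ldha (chr7:46841475-46855627, plus strand) the M subunit, known from muscle. Ldhb stood at 138, 115 and 119 CPM with scrambled siRNA at 54 h and at 361, 255 and 206 CPM with Foxl2 siRNA. It rose 2.21-fold without overlap (log2 1.14 ± 0.20, edgeR adjusted p = 0.000818), with the libraries of the Foxl2 siRNA group spread more widely than the scrambled ones. At 30 h the groups overlapped, at 111, 87.9 and 102 CPM against 154, 95.5 and 135 CPM, and Ldhb did not pass (log2 0.35 ± 0.20, edgeR adjusted p = 0.281). Ldha stood at 358, 387 and 374 CPM against 274, 289 and 344 CPM at 54 h, a 1.23-fold fall close to the threshold (log2 -0.30 ± 0.11, edgeR adjusted p = 0.0418). The Ldha call was lost in 9 of 13 alternatives, with an edgeR adjusted p of 0.0501 under RLE scaling, 0.0573 under upper-quartile scaling and 0.0693 to 0.156 when any library other than Foxl2 siRNA replicate 3 was left out. Pdk1 (chr2:71873224-71903858, plus strand), a kinase that switches pyruvate dehydrogenase off, stood at 6.78, 6.64 and 6.07 CPM against 13.1, 9.69 and 11.1 CPM at 54 h. It rose 1.74-fold (log2 0.80 ± 0.12, edgeR adjusted p = 0.000286), whereas at 30 h its change of 0.20 ± 0.12 did not pass (edgeR adjusted p = 0.326).

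As a share of Ldha and Ldhb per exon length, Ldhb made up 35.8%, 30.2% and 31.7% in the scrambled libraries of 54 h against 65.7%, 56.1% and 46.6% after Foxl2 siRNA. At 30 h it made up 29.1%, 25.2% and 25.8% against 38.0%, 32.9% and 33.7%. The shares did not overlap at either time. With Esr2 siRNA they were 23.9%, 28.7% and 24.3%, within or next to the scrambled range.

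**Figure D3:**
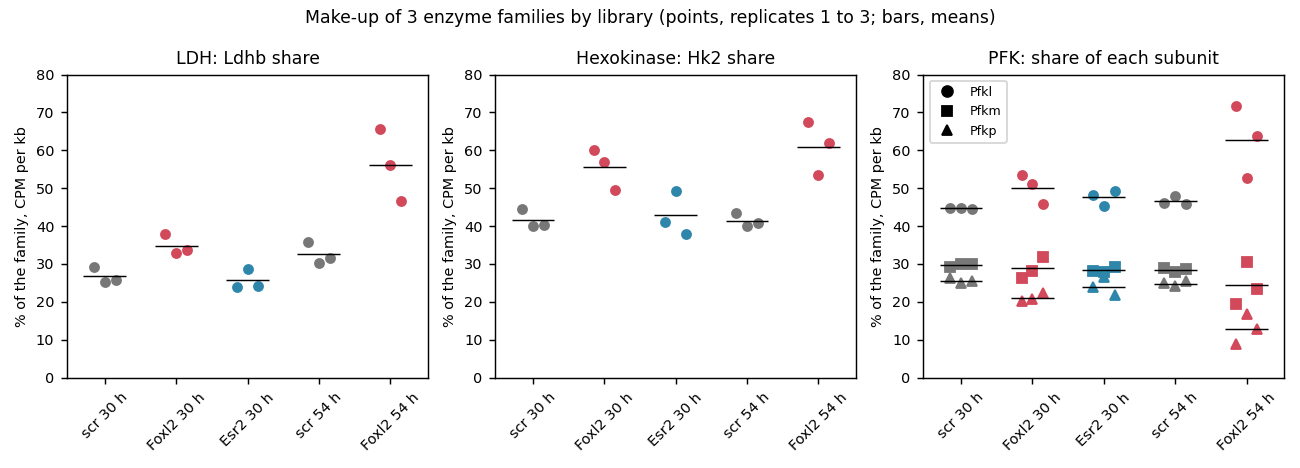
Share of a family's RNA (y axis, % of summed CPM per kb of exon) in each library: Ldhb among Ldha and Ldhb, Hk2 among Hk1 and Hk2, and each of the 3 phosphofructokinase subunits; bars are group means. With Foxl2 siRNA at 54 h the mean Ldhb share was 56.1% against 32.6%, the mean Hk2 share 60.9% against 41.4%, and the mean Pfkp share 12.9% against 24.8%.

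On the oxygen-sensing side, the HIF alpha subunits were not called against scrambled siRNA. Hif1a (chr12:73901375-73947530, plus strand) stood at 483, 593 and 547 CPM with scrambled siRNA at 54 h and at 456, 413 and 503 CPM with Foxl2 siRNA (log2 -0.24 ± 0.12, edgeR adjusted p = 0.117), with overlap. Epas1, which encodes HIF2 alpha, stood at 12.3, 16.1 and 13.0 CPM against 15.3, 16.7 and 19.2 CPM (log2 0.31 ± 0.18, edgeR adjusted p = 0.198), also with overlap. Per exon length, Hif1a was far more abundant than Epas1, at 99.3 against 2.50 CPM per kb in the scrambled group at 54 h.

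Egln1 (chr8:124908587-124949324, minus strand), which encodes PHD2, the main prolyl hydroxylase that marks HIF alpha for breakdown, was lower in every Foxl2 siRNA library. It stood at 120, 121 and 118 CPM with scrambled siRNA at 30 h and at 82.3, 81.0 and 98.0 CPM with Foxl2 siRNA. At 54 h it stood at 121, 118 and 117 CPM against 84.2, 93.1 and 87.9 CPM. The fall was 1.37-fold at 30 h (log2 -0.45 ± 0.07, edgeR adjusted p = 0.00144) and 1.35-fold at 54 h (log2 -0.43 ± 0.07, edgeR adjusted p = 0.000560), and in both groups the library that kept the most Foxl2 had the highest Egln1. Egln3, the prolyl hydroxylase PHD3, was near the limit of detection at 4 to 51 counts per library and reached the filter of 0.191 CPM in every library of a group only with Foxl2 siRNA at 54 h, as did Ankrd37.

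Of the 9 HIF targets outside glycolysis, 2 were called at 54 h (22.2%), both higher, against 38.8% of all genes, and 1 at 30 h (11.1%), against 13%. Neither share lies above the background. Vegfa (chr17:46016993-46032369, minus strand), which encodes the main growth factor for blood vessels, stood at 63.1, 83.5 and 72.0 CPM with scrambled siRNA at 30 h and at 111, 139 and 87.5 CPM with Foxl2 siRNA. At 54 h it stood at 66.5, 77.0 and 72.3 CPM against 130, 107 and 129 CPM. The groups did not overlap at either time, and Vegfa rose 1.54-fold at 30 h (log2 0.63 ± 0.18, edgeR adjusted p = 0.0367) and 1.70-fold at 54 h (log2 0.76 ± 0.18, edgeR adjusted p = 0.00468). A fit of those 6 libraries alone did not call Vegfa at 30 h (edgeR adjusted p = 0.0686), nor did fits that lacked 1 library (scrambled replicate 1 or 3, knockdown replicate 1 or 2; 0.0855 to 0.159). Ddit4 (chr10:59949669-59951834, minus strand), an inhibitor of mTORC1 signalling that also responds to other stresses, stood at 46.7, 42.6 and 45.8 CPM against 104, 62.9 and 108 CPM at 54 h. It rose 2.03-fold (log2 1.02 ± 0.18, edgeR adjusted p = 0.000741), least in the library that kept the most Foxl2. At 30 h it stood at 45.5, 41.8 and 43.8 CPM against 73.3, 68.1 and 53.5 CPM, without overlap, and missed the threshold (log2 0.57 ± 0.18, edgeR adjusted p = 0.0533); 6 of 13 alternatives put it past the threshold, among them the fit without Foxl2 siRNA replicate 3 (0.0237).

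P4ha1 (chr10:59323296-59373304, plus strand), the alpha subunit of collagen prolyl 4-hydroxylase, stood at 112, 125 and 123 CPM against 139, 169 and 164 CPM at 54 h. The groups did not overlap, and the change just missed (log2 0.39 ± 0.15, edgeR adjusted p = 0.0573), though 7 of 13 alternatives called it, among them the fit without Foxl2 siRNA replicate 1 (0.0484). The other 6 targets were not called. Bnip3, a mitophagy receptor, stood at 30.7, 35.2 and 34.2 CPM against 23.9, 31.3 and 31.4 CPM at 54 h (log2 -0.21 ± 0.16, edgeR adjusted p = 0.333). Ndrg1 and Adm, which encodes the vasodilator adrenomedullin, had log2 changes of 0.03 ± 0.28 and 0.08 ± 0.38 at 54 h, and P4ha2 one of -0.04 ± 0.27. Car9, a carbonic anhydrase used as a marker of hypoxic cells, stood at 0.248 to 0.587 CPM over all 15 libraries, with a log2 change of 0.18 ± 0.32. Ankrd37 stood at 0.183, 0.341 and 0.311 CPM against 0.506, 0.388 and 0.597 CPM at 54 h (log2 0.82 ± 0.44, edgeR adjusted p = 0.160). Only in that Foxl2 siRNA group did all its libraries reach the filter of 0.191 CPM. Its exons overlap the opposite-strand genes Lrp2bp (20.1% of the exon length) and Ufsp2 (6.1%), with the strand setting not given. Ufsp2 had a mean of 36.3 CPM, against 0.316 CPM for Ankrd37.

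Set side by side, the 14 tested enzymes had 6 calls at 54 h (42.9%; 5 higher, 1 lower) with a median log2 change of 0.14, and the 9 HIF targets had 2 calls (both higher) with a median of 0.18, beside 38.8% called and a median of -0.01 over all genes. At 30 h the enzymes had 2 calls and a median of 0.04, and the HIF targets 1 call and a median of -0.03, beside 13% of all genes called. The HIF median rested on single libraries: leaving out 1 moved it between 0.055 and 0.3607 at 54 h and between -0.1711 and 0.1911 at 30 h, and the enzyme median between 0.0651 and 0.1472 and between -0.018 and 0.1207. The classes were not measured with the same precision: the median SE of a log2 change at 54 h was 0.103 for the enzymes and 0.268 for the HIF targets, and the SD of the class mean between libraries of a group was 0.0419 and 0.229 in log2 CPM. The enzymes were also the more abundant class, with a median level of 141 CPM against 23.0 CPM. The difference between the median changes of the classes was thus smaller than the spread of the HIF class mean between libraries. The mean centred log2 CPM of the enzymes did not overlap between the groups, at -0.137 to -0.054 with scrambled siRNA and 0.089 to 0.164 with Foxl2 siRNA at 54 h, and at -0.085 to -0.043 against -0.007 to 0.109 at 30 h. That of the HIF targets overlapped at both times. The enzyme mean was led by Hk2 and Aldoc, whose log2 changes were 0.84 and 0.81 at 30 h and 1.16 and 1.20 at 54 h. The enzyme medians were 0.04 and 0.14, so the mean does not describe most enzymes. How often other lists of genes would not overlap was not tested. For summed CPM, which the most abundant genes set, the enzymes overlapped and the HIF targets did not. The summed CPM of the 15 enzyme rows, led by Gapdh and Pkm, was 4101 ± 71 (SD, n = 3) with scrambled siRNA and 4568 ± 492 with Foxl2 siRNA at 54 h, and those groups overlapped. The summed CPM of the 9 HIF targets was 309 ± 23 against 438 ± 36 at 54 h and 311 ± 27 against 381 ± 35 at 30 h, without overlap at either time; Vegfa, Ddit4 and P4ha1 are its 3 most abundant genes.

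**Figure D4:**
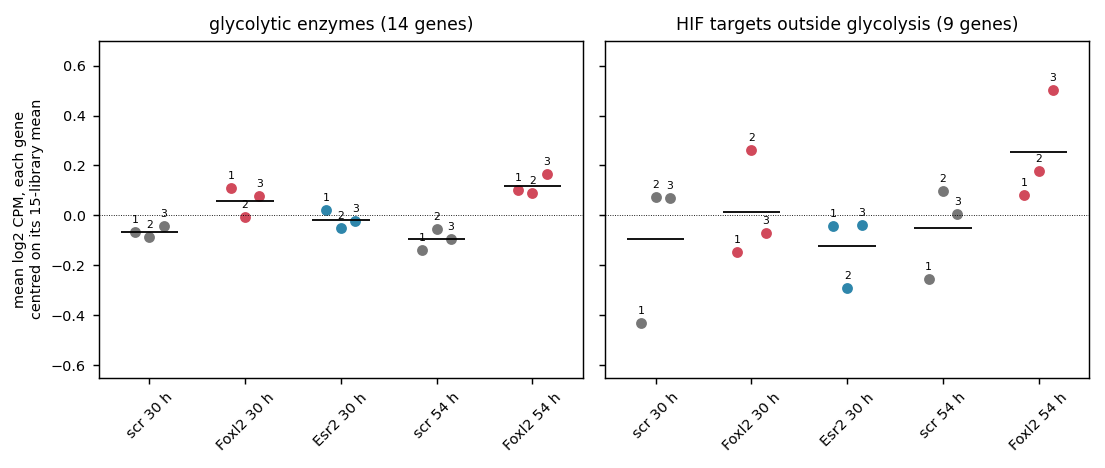
Mean log2 CPM of the 14 tested enzymes (left) and of the 9 HIF targets outside glycolysis (right) in each library, each gene centred on its mean over the 15 libraries; numbers are replicates and bars are group means. The enzymes lie between -0.137 and 0.164, while the HIF targets run from -0.432 to 0.502 and spread widely within groups.

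The spread within groups had an order shared with other genes. For Slc2a1, Pfkm, Eno2, Egln3, Bnip3, Adm and P4ha2 the lowest library was, in all 5 groups, the library with the lowest Col1a1, the collagen gene of stromal cells. That library was replicate 1 of the scrambled and Foxl2 siRNA groups and replicate 2 of the Esr2 siRNA group. Adm, for example, stood at 3.99, 7.90 and 6.72 CPM with scrambled siRNA at 30 h, where Col1a1 stood at 128, 439 and 323 CPM. Col1a1 differed up to 4.01-fold between libraries of a group, and the part of stromal RNA in the level of these members was not tested. Hk2, Gpi1, Aldoa, Gapdh and Ldhb shared their lowest library with Col1a1 in 0 of the 5 groups. For Hk1, Hk2, Pfkl, Pfkfb3, Pdk1, Vegfa, Ddit4, Ndrg1 and Ankrd37 the lowest library of both Foxl2 siRNA groups was the one that kept the most Foxl2, and for Pfkm, Pfkp, Eno2, Egln1, P4ha1 and P4ha2 it was the highest. Of these, Hk2, Pfkl, Pdk1, Vegfa, Ddit4, Pfkp and Egln1 were called after Foxl2 siRNA. The called members Gpi1, Aldoa, Aldoc, Pfkfb4, Ldha and Ldhb had neither order in both groups. Aldoc, for example, was highest at 54 h, at 6.29 CPM, in the library that kept the most Foxl2. How many of all genes had either order was not counted, and a link with the Foxl2 level was not tested.

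No member was called over time with scrambled siRNA in the fit of all 15 libraries. Between scrambled siRNA at 54 h and at 30 h, 0 of 34 members were called by edgeR, with 0 at an unadjusted p under 0.05, 0 by DESeq2 and 7 by voom, against 0.00671% of all genes called by edgeR and 1400 higher and 1293 lower genes by voom. Same-numbered scrambled libraries deviated together for replicates 1 and 2 and weakly for replicate 3 (correlations of 0.632, 0.490 and 0.143). When the 6 scrambled libraries were fitted alone with the replicate number as a block, 4 members were called, against 11% of 14407 genes (6.22% higher, 4.79% lower). Ldhb was higher at 54 h (log2 0.31 ± 0.04, edgeR adjusted p = 0.000911 with the replicate block), as were Eno2 (0.29 ± 0.06, 0.0161) and Hif1a (0.19 ± 0.04, 0.0174), while Pgam1 was lower (-0.16 ± 0.04, 0.0260). The log2 change of Ldhb over time in the scrambled libraries was thus 0.31, beside 1.1 ± 0.20 between the Foxl2 siRNA groups.

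Between Foxl2 siRNA at 54 h and at 30 h, 4 members were called, all higher, against 7.04% of all genes (3.76% higher, 3.29% lower): Pfkl (log2 0.55 ± 0.12, edgeR adjusted p = 0.0201), Aldoc (0.53 ± 0.11, 0.0148), Ldhb (1.1 ± 0.20, 0.0102) and Pdk1 (0.63 ± 0.12, 0.0115). In a fit of those 6 libraries alone these members did not pass (edgeR adjusted p = 0.198 to 0.238). Without Foxl2 siRNA replicate 3 at 30 h, Pfkl (0.0676) and Aldoc (0.0555) failed the threshold, as did Pfkl without replicate 1 at 54 h (0.0853). The change after Foxl2 siRNA was itself compared between the times as an interaction: 0 of 34 members passed edgeR, with 6 at an unadjusted p under 0.05, 0 by DESeq2 and 4 by voom, against 0.00671% of all genes by edgeR and 487 higher and 569 lower genes by voom. Apart from the scarce Ankrd37 (0.86 ± 0.65, edgeR adjusted p = 0.728), the largest interactions were 0.79 ± 0.29 for Ldhb (edgeR adjusted p = 0.368), 0.60 ± 0.17 for Pdk1 (0.245) and 0.49 ± 0.17 for Pfkl (0.350). Without Foxl2 siRNA replicate 2 at 54 h, the library that kept the most Foxl2, 325 genes passed as higher and 579 as lower, and with them Pfkl (log2 0.61, edgeR adjusted p = 0.0253), Pdk1 (0.70, 0.0282), Ddit4 (0.66, 0.0495) and Pfkp (-0.68, 0.0311).

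Esr2 siRNA changed 1 of the 34 members at 30 h (2.94%), against 4.23% of all genes (1.13% higher, 3.11% lower). P4ha1 was lower, at 68.5, 112 and 73.4 CPM against 122, 132 and 130 CPM with scrambled siRNA (1.52-fold, log2 -0.60 ± 0.15, edgeR adjusted p = 0.0416). Esr2 siRNA replicate 2, which was lowest for the stroma list, was nearest to the scrambled libraries. P4ha1 failed the threshold in a fit of those 6 libraries alone (edgeR adjusted p = 0.0877) and when any library other than Esr2 siRNA replicate 2 was left out (0.097 to 0.196). Ddit4 stood at 76.5, 55.4 and 64.6 CPM against 45.5, 41.8 and 43.8 CPM, all above the scrambled libraries, and did not pass (log2 0.58 ± 0.18, edgeR adjusted p = 0.0922), though DESeq2 called it (adjusted p = 0.028). Epas1 stood at 7.62, 8.96 and 10.1 CPM against 10.3, 12.6 and 15.7 CPM (log2 -0.53 ± 0.18, edgeR adjusted p = 0.132), and Egln1 at 98.9, 111 and 100 CPM against 120, 121 and 118 CPM (log2 -0.21 ± 0.07, edgeR adjusted p = 0.139). Neither pair of groups overlapped. None of the 14 tested enzymes was called by edgeR (1 at an unadjusted p under 0.05, 0 by DESeq2 and 4 by voom, which called 2148 genes higher and 2583 lower), with log2 changes from -0.19 for Aldoc to 0.24 for Pfkl.

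The knockdowns were then set against each other at 30 h, where 6 of 34 members differed (17.6%), against 20.4% of all genes (11.1% higher, 9.34% lower). With Foxl2 siRNA, Aldoc was higher than with Esr2 siRNA (log2 1.0 ± 0.11, edgeR adjusted p = 6.32e-05), as were P4ha1 (0.74 ± 0.15, 0.0041), Hk2 (0.71 ± 0.21, 0.0313), Epas1 (0.66 ± 0.18, 0.0215) and Pfkfb4 (0.44 ± 0.12, 0.0203). Egln1 was lower (-0.25 ± 0.07, 0.0290). When only these 6 libraries were fitted, Hk2, Epas1 and Egln1 no longer passed (edgeR adjusted p = 0.067, 0.0553 and 0.151). Leaving out 1 library also ended the call of Hk2 (either knockdown's replicate 1, Foxl2 siRNA replicate 2 or Esr2 siRNA replicate 3, up to 0.122), Epas1 (Esr2 siRNA replicate 1 or Foxl2 siRNA replicate 2, up to 0.0978), Egln1 (Esr2 siRNA replicate 2 or 3, Foxl2 siRNA replicate 1 or 2, up to 0.11) and Pfkfb4 (Esr2 siRNA replicate 1 or 3, Foxl2 siRNA replicate 1, up to 0.0743). The Hk2 libraries of both knockdowns met at 119 CPM. Ddit4 stood at 65.0 ± 10.2 and 65.5 ± 10.6 CPM (SD, n = 3) in the knockdowns, a difference of -0.01 ± 0.18 in log2.

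Other genes of these pathways, taken from lists, were called in shares of 15.4% to 48% at 54 h, beside the 38.8% of all genes. At 54 h, 7 of 18 tested genes of a further glycolysis list were called after Foxl2 siRNA (5 higher, 2 lower; median log2 change 0.01). Pgam2, a muscle phosphoglycerate mutase, rose from 29 to 97 summed counts (ratio 3.39, 95% exact interval 2.22 to 5.32, counting error only; edgeR adjusted p = 0.000584), and was higher at 30 h with overlapping libraries (log2 1.01 ± 0.31, 0.0469). Of 13 genes for the entry of pyruvate into mitochondria, Mpc1, a subunit of the pyruvate carrier, was higher and Pcx lower. Pcx, which encodes pyruvate carboxylase, fell from 230 ± 44.8 to 60 ± 21.7 CPM (SD, n = 3; log2 -1.94 ± 0.32, edgeR adjusted p = 0.000511), a larger change than that of any member, and was already lower at 30 h (-1.33 ± 0.32, 0.0153). Of 7 genes of the pentose phosphate pathway, 3 were higher and 0 lower, led by G6pdx, its first enzyme (log2 0.74 ± 0.10, edgeR adjusted p = 9.76e-05), which was also higher at 30 h (0.53 ± 0.10, 0.00356). Taldo1, the transaldolase, rose by 0.57 ± 0.14 at 54 h (edgeR adjusted p = 0.00652).

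Of 13 further genes of the HIF pathway, 3 were higher and 2 lower at 54 h. Arnt2, a partner of HIF alpha subunits, rose from 89.6 ± 6.20 to 157 ± 18.5 CPM (SD, n = 3; log2 0.81 ± 0.11, edgeR adjusted p = 8.41e-05), and Cited2, which competes with HIF for its coactivators, fell by 0.65 on the log2 scale (SE 0.19, edgeR adjusted p = 0.0173). At 30 h Arnt2 (0.62 ± 0.10, 0.0021) and Hif1an, the asparagine hydroxylase that restrains HIF alpha (0.27 ± 0.06, 0.0177), were higher. Of 25 tested further HIF targets, 7 were higher and 5 lower at 54 h (median -0.05), with the largest change in Slc16a3, the lactate exporter MCT4 that is also on the further glycolysis list (log2 1.48 ± 0.40, edgeR adjusted p = 0.0109). At 30 h 3 of the 25 were called (12%, against 13% of all genes), among them Hmox1, heme oxygenase (0.57 ± 0.10, 0.00204), and Fam162a (-0.47 ± 0.12, 0.0216). At 54 h 48% of the 25 were called, against 38.8% of all genes (18.5% higher, 20.3% lower). Calls in both directions were thus not particular to these targets. The 2 calls among the 9 member targets at 54 h were both higher. After Esr2 siRNA, Hif1an (0.38 ± 0.06, edgeR adjusted p = 0.00459), the pyruvate carrier subunit Mpc2 (0.37 ± 0.09, 0.0407) and the transferrin receptor Tfrc (0.53 ± 0.11, 0.0170) were higher, and the glycogen synthase Gys1 (-0.49 ± 0.07, 0.000912) was lower.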

How the data were processed

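RNA from 15 libraries was counted per gene by the authors, who deposited whole-number counts of reads, not normalized. The names bcl2fastq 2.15.0, TopHat2, mm10 and DESeq2 appear in the submitters' processing notes. Which program counted the reads, with which gene models and strand option, is not given in the sources used here. The 92 ERCC spike-in rows (0.105% to 0.352% of counts) were left out. In 1 library 15 symbols turned into dates were restored by row order, none of them a member.

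Counts were fitted with edgeR 4.0.16 (R 4.3.3) in 1 quasi-likelihood fit of 5 group means over all 15 libraries, with TMM scaling, its expression filter, 10 residual degrees of freedom and Benjamini-Hochberg adjustment; genes were called at an adjusted p under 0.05. Scripts were tested on simulated data. Levels are TMM-normalised CPM, and the class means of each library used log2 CPM with 0.1 CPM added. The SDs of the class means between libraries of a group (0.0419 and 0.229) used edgeR's log2 CPM with a prior count of 2 instead. The text names all members and, from each pathway list and comparison with scrambled siRNA, the 2 called genes with the largest change, of which some are not reported here. The members and lists were chosen with earlier results of these data known. Exon lengths and gene positions came from GENCODE M21, promoters from RefSeq (GRCm38.p6). Alternatives were RLE and upper-quartile scaling, no filter, DESeq2 1.42.0, voom with quality weights (limma 3.58.1), only the groups compared, a replicate block and leaving out each library. Deviations from the group mean were correlated between same-numbered scrambled libraries of 30 h and 54 h (0.632, 0.490 and 0.143). Replicate 3 of 30 h had a higher value with replicate 2 of 54 h (0.336). Same-numbered scrambled and Foxl2 siRNA libraries had 0.494, 0.439 and 0.066 at 30 h and 0.397, 0.015 and 0.136 at 54 h. Between the Foxl2 siRNA times they had 0.659, -0.257 and -0.294. There, replicate 2 of 30 h had 0.545 with replicate 3 of 54 h, and replicate 3 had 0.643 with replicate 2. Same-numbered scrambled and Esr2 siRNA libraries of 30 h had -0.139, -0.474 and 0.322. A replicate block thus joined some libraries that did not deviate together. Only the alternatives with a replicate block used the replicate numbers, and the main fit did not. Exact intervals of count ratios and floors of 3 counts cover counting error only.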

Additional observations from a re-analysis of the deposited data

How the results depend on the processing

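Over all alternatives, 3197 of the log2 changes of single members stayed on the same side of the threshold, 75 newly passed it, 60 no longer did and 0 changed direction while called. The direction of members that were not called under either setting was not compared. Of 392 alternative values of the counts and class medians, 341 stayed within the limits set for them. Counts over all genes are given in brackets. With DESeq2, 1 member (408 genes) was higher after Esr2 siRNA, 2 (1756) were lower between Foxl2 and Esr2 siRNA, and 1 (764) was lower between the Foxl2 siRNA times. With voom and quality weights, 4 members (2763) were lower after Foxl2 siRNA at 30 h, 6 higher (2148) and 3 lower (2583) after Esr2 siRNA, 2 higher (1400) and 5 lower (1293) over time with scrambled siRNA, 3 higher (487) and 1 lower (569) in the interaction, 9 higher (2769) and 6 lower (2677) between the knockdowns and 2 lower (812) between the Foxl2 siRNA times, and the enzyme median at 54 h was 0.0829. When only the groups compared were fitted, 1 member was higher (451) and 0 lower (680) after Esr2 siRNA, 3 higher (935) and 0 lower (690) between the knockdowns and 0 higher (0) between the Foxl2 siRNA times. With the replicate block in the 15-library fit, 1 member, Pfkp, was lower (404) between the Foxl2 siRNA times (edgeR adjusted p = 0.0439), Vegfa failed the threshold at 30 h (0.0572), and Ddit4 at 30 h (0.0351) and P4ha1 at 54 h (0.0223) passed it after Foxl2 siRNA. The scrambled libraries fitted alone with the replicate block, an alternative chosen after seeing the data, gave 3 members higher (896) and 1 lower (690). The cause of these differences was not tested.

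Leaving out 1 library gave 2 to 5 members higher after Foxl2 siRNA at 30 h (437 to 1432 genes), 0 to 1 lower after Esr2 siRNA (202 to 751), 0 to 3 higher (1 to 325) and 0 to 1 lower (0 to 579) in the interaction, 2 to 6 higher (974 to 1816) and 0 to 1 lower (793 to 1831) between the knockdowns, and 2 to 7 higher (196 to 1221) and 0 to 2 lower (132 to 1416) between the Foxl2 siRNA times. The enzyme median ranged from -0.018 to 0.1207 at 30 h, 0.0651 to 0.1472 at 54 h, 0.0228 to 0.1323 in the interaction, -0.0605 to 0.0256 between the knockdowns and -0.0553 to 0.1165 between the Foxl2 siRNA times. Depth limits Car9, Ankrd37, Egln3 and Eno1, with at most 51 counts in a library.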
